A study of Homo sapiens with 4 samples.

Results

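TUBA3C, TUBA3D and TUBA3E are 3 human alpha-tubulin genes whose transcripts are known mainly from the testis. They were taken by symbol as 3 of the 60612 lines of an RNA sequencing table with 4 libraries of human cancer cell lines. The genes were chosen by their levels with and without drug in these same libraries, so those levels are a description and no test is attached to them. The widely expressed alpha-tubulins TUBA1A, TUBA1B, TUBA1C and TUBA4A serve as reference. HCC1937 was derived from a breast carcinoma and THP-1 from a monocytic leukaemia. All 4 libraries came from cells labelled p53-/- that had also been infected with p53-R282W. Each line has 1 untreated library and 1 library of cells given DAC (decitabine), a cytidine analogue that is built into DNA and traps DNA methyltransferases. HCC1937 was given 0.3 µM for 5 days and THP-1 5 µM for 2 days, so the line and the exposure cannot be told apart in any difference between the lines. Each group is a single library, and the spread between cultures was therefore not measured. Every interval below is a 95% interval that covers counting error only.

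Values are FPKM, reads of a gene divided by the length of its exons and by the depth of its library. Counted reads, estimated from the spacing of the values of short genes, came to 18.8 M (untreated) and 18.7 M (DAC) for HCC1937 and to 19.5 M and 19.6 M for THP-1. No library without p53-R282W was analysed here. Of 12 epithelial and basal breast markers, 12 were at 1 FPKM or more in both HCC1937 libraries and at most 4 in a THP-1 library. Of 12 myeloid markers, 12 were at that level in both THP-1 libraries and at most 3 in an HCC1937 library. Of 8 markers of spermatocytes, spermatids and Sertoli cells, 2 and 3 reached 1 FPKM in untreated and DAC HCC1937 and 1 in each THP-1 library. Their summed level was 38.74 and 36.84 FPKM in HCC1937 and 4.01 and 3.69 FPKM in THP-1, and 5, 4, 4 and 3 of the 8 were listed at 0 in the 4 libraries in that order. Their part in the results below was not tested.

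Alpha-tubulin pairs with beta-tubulin to form the dimer from which microtubules are built. Microtubules make up the mitotic spindle, the tracks for transport in the cell and the axoneme, the core of cilia and of the sperm flagellum. Vertebrates carry several alpha-tubulin genes that encode closely similar proteins and differ mainly in the tissues where they are transcribed. Many genes transcribed mainly in the male germ line have promoters that are methylated at CpG (a cytosine followed by a guanine) in somatic cells, and inhibitors of DNA methyltransferases are widely used to study such genes.

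TUBA3D lies on chromosome 2 at chr2:131476093-131482934 on the plus strand and TUBA3E on the same chromosome at chr2:130191743-130198461 on the minus strand. TUBA3C lies on chromosome 13 at chr13:19173770-19181852 on the minus strand. These positions are on hg38 in the GENCODE 29 annotation, where all 3 are protein-coding. The promoter of each gene was found in the RefSeq promoter table (build GRCh38.p14), which holds 250 bases before and 50 after each gene's start. The bases from 250 to 31 before the start are shown, with each CpG in capitals, because they show how alike the 3 promoters are. Further CpG sites lie in the bases of the window that are not printed. They come from chr13:19181855-19182074 on the minus strand, chr2:131475869-131476088 on the plus strand and chr2:130198470-130198689 on the minus strand, in the order given here.
TUBA3C: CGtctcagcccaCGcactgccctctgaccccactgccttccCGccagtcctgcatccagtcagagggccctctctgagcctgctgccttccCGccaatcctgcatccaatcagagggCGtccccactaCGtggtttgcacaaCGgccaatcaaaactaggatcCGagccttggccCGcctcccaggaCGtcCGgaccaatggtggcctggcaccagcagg
TUBA3D: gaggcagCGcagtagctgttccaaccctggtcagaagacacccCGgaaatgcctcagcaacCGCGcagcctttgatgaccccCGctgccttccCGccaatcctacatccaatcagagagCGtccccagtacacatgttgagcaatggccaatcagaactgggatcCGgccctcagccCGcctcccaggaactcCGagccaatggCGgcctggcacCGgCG
TUBA3E: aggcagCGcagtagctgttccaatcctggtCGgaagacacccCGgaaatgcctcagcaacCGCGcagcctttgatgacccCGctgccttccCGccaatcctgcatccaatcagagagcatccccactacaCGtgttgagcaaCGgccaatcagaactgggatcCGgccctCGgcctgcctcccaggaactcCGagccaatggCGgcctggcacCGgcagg

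In these 220 bases TUBA3C had 11 CpG, TUBA3D 13 and TUBA3E 14. In the whole window of 300 bases the counts were 20, 19 and 20, against a median of 14 over all 35116 promoters of the table. TUBA3C and TUBA3E each had more CpG than 58.8% of these promoters and TUBA3D more than 57.1%. The ratio of observed to expected CpG was 0.65, 0.62 and 0.67, with a median of 0.58 over all promoters. By rank the TUBA3 promoters were thus near the middle of the table in CpG, between TUBA1A with 16 CpG and TUBA4A with 28, while TUBA1B had 43. Counts near this middle were less frequent than those on either side. There were 482 promoters with 14 CpG and 579 with 20, against 2540 with 2 and 696 with 27. TUBA1C has 3 entries in the table, with 2, 2 and 25 CpG. DNA methylation was not analysed here.

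The promoters of TUBA3D and TUBA3E were 94.0% identical, with 18 differing bases of 298 aligned, and 15 of their CpG sites were aligned with each other. TUBA3C was 74.4% identical to TUBA3D, with 74 differing bases, and differed from TUBA3E in 72 bases of 288 aligned, and 9 CpG sites were aligned in each of these comparisons. Motifs were searched on both strands of the whole window. The motif GCGGGAA, a site of the E2F6 type, occurred 2 times in TUBA3C and 1 time each in TUBA3D and TUBA3E, and at least 1 time in 6.6% of all promoters. CACGTG, the E-box, occurred 1 time, in TUBA3E, and was in 7.3% of all promoters. TGACGTCA, the cyclic AMP response element, GGGCGG, the GC box, and TATAAA were in none of the 3 windows and in 1.8%, 45.0% and 11.5% of all promoters. CCAAT, a motif chosen after the printed sequences had been read, occurred 5 times in TUBA3C, 5 times in TUBA3D and 6 times in TUBA3E. At least 1 CCAAT was in 34.6% of all promoters, at least 5 in 0.36% and at least 6 in 0.12%. All were on the printed strand. The first bases of the 5 motifs of TUBA3C lay 157, 145, 105, 55 and 30 bases before the start, the last of them outside the stretch shown. Those of TUBA3D lay 155, 143, 103, 53 and 28 bases before the start, and TUBA3E had the positions of TUBA3C and a further motif at 231 bases. Such matches describe the letters of the sequence and no binding was measured.

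The transcripts of these genes are so similar that short reads may not tell them apart. The coding sequences, 1350 bases each, were 98.8% identical between TUBA3D and TUBA3E (16 differing bases), 96.6% between TUBA3C and TUBA3D (46) and 96.1% between TUBA3C and TUBA3E (52). Against the 4 reference alpha-tubulins the identity was 83.6 to 85.2%. Of the windows of 50 bases in the annotated transcript, 83.4% in TUBA3C, 48.2% in TUBA3D and 53.4% in TUBA3E occurred in the transcripts of no other gene. With windows of 100 bases the shares were 97.9%, 78.9% and 80.2%, and with 150 bases 100.0%, 96.3% and 96.3%. At 50 bases 44.6% of the windows of TUBA3D also occurred in TUBA3E and 14.8% in TUBA3C. Of the windows of TUBA3C at this length, 14.7% occurred in TUBA3D and 9.4% in TUBA3E. The read length and the treatment of reads that fit several genes are not given in the sources used here. The division of reads among the 3 genes is therefore uncertain, with the most shared sequence between TUBA3D and TUBA3E. Reads lost in counting would lower the summed level too. None of the exon bases of the 3 genes lay in an exon of another annotated gene.

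**Figure D1:**
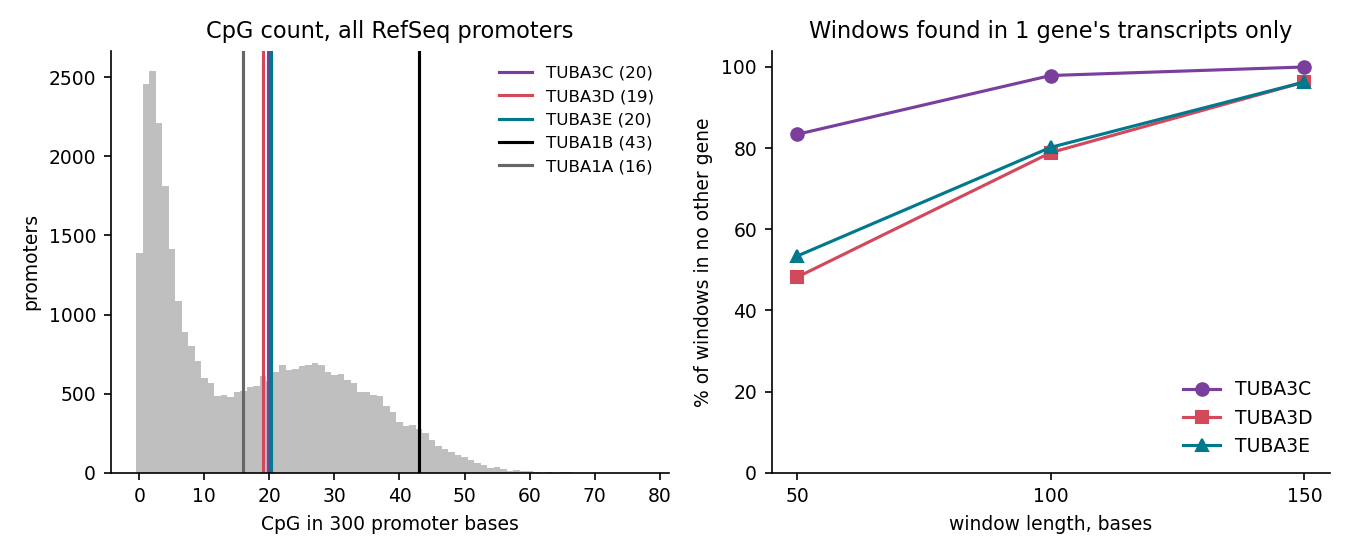
Left, number of RefSeq promoters (vertical axis) by CpG count in the window of 300 bases (horizontal axis), with vertical lines at the counts of 5 alpha-tubulin genes; TUBA3C and TUBA3E both have 20, and their lines are set slightly apart to be seen. Right, percent of transcript windows found in no other gene against window length in bases, where TUBA3C starts at 83.4% and TUBA3D and TUBA3E at 48.2% and 53.4%.

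In untreated HCC1937 all 3 TUBA3 genes were listed at 0, and in the DAC library TUBA3D and TUBA3E stood above 30 FPKM and TUBA3C near 1. TUBA3E was at 0 FPKM untreated and 33.7 FPKM with DAC, from about 972 reads. TUBA3D was at 0 and 30.71 FPKM, from about 918 reads. TUBA3C was at 0 and 1.05 FPKM, from about 30 reads. Whether some of these reads came from transcripts of TUBA3D or TUBA3E was not tested. In the untreated library 1 read would give 0.034 FPKM for TUBA3C and TUBA3E and 0.033 FPKM for TUBA3D, and a count of 0 allows up to 3 reads, or 0.1 FPKM. No fold change is given against a library at 0. On log2(FPKM + 1) the difference of DAC minus untreated was 5.12 for TUBA3E, 4.99 for TUBA3D and 1.04 for TUBA3C. These sizes depend on the added 1 and are not bounds.

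In THP-1 the levels with DAC were at most 2.4 FPKM, and TUBA3D and not TUBA3E was the highest of the 3. TUBA3D was at 0.25 FPKM untreated and 2.4 FPKM with DAC, a 9.6-fold difference with an interval of 4.5 to 22.4 from about 8 and 75 reads. TUBA3C had no reads in the untreated library and stood at 1.38 FPKM in the DAC library, from about 42 reads, a log2 difference of 1.25. TUBA3E was at 0.03 and 0.13 FPKM, from about 1 and 4 reads, and its ratio of 4.33 has an interval of 0.394 to 196.0, so no difference was detectable at this depth. TUBA3E, which stood close to TUBA3D in HCC1937 with DAC, was thus the lowest of the 3 in THP-1 with DAC. The THP-1 columns imply other gene lengths than the HCC1937 columns, so levels are compared between the lines only roughly.

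Genes were kept in a line when they reached 1 FPKM in at least 1 of its 2 libraries, and were called where the libraries differed 2-fold or more on the log2(FPKM + 1) scale. By this rule 3 of 3 TUBA3 genes were called higher with DAC in HCC1937, where 10.3% of the 14058 kept genes were (1452 genes) and 1.44% were called lower (202 genes). With median-of-ratios scaling of the 2 libraries the rule called 1090 genes higher and 451 lower, and the median difference over all kept genes changed from 0.19 to -0.04. TUBA3C was at 0.96 under this scaling and under upper-quartile scaling, below 2-fold. In THP-1, TUBA3C and TUBA3D were kept and called higher, TUBA3E was not kept, and 1.14% of the 12075 kept genes were called higher and 0.364% lower. Among protein-coding genes alone the shares called higher were 7.87% of 11492 in HCC1937 and 0.321% of 10914 in THP-1, and 0.757% and 0.0% were called lower. Each TUBA3 gene called was kept through its DAC library alone, and the genes had been picked for these differences, so nothing is read from the counts. Ordered by difference among the kept protein-coding genes, TUBA3E was number 11, TUBA3D number 14 and TUBA3C number 849 in HCC1937. In THP-1, TUBA3D was number 10 and TUBA3C number 17. In bulk RNA, more cells transcribing a gene and more transcripts per cell cannot be told apart.

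The summed level of the 3 genes, given because reads may have been divided among near-identical copies, was 0 FPKM in untreated HCC1937 and 65.46 FPKM with DAC. In THP-1 the sum was 0.28 FPKM untreated and 3.91 FPKM with DAC. The summed level of the 4 reference alpha-tubulins was 539.72 and 497.65 FPKM in HCC1937 and 954.46 and 875.26 FPKM in THP-1, untreated and DAC. Per length, the TUBA3 genes thus made up 11.6% of these alpha-tubulin transcripts in HCC1937 with DAC and 0.445% in THP-1 with DAC. Untreated, the share was 0% in HCC1937 and 0.0293% in THP-1. Adding TUBA8 and TUBAL3 to the total left these shares at 11.6% and 0.443% with DAC. The shares depend on gene length, since the merged exons of the reference genes span 3421 to 4631 bases and those of the TUBA3 genes 1542 to 1598. Of the estimated reads, not divided by length, the TUBA3 genes held 4.99% in HCC1937 and 0.189% in THP-1 with DAC.

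**Figure D2:**
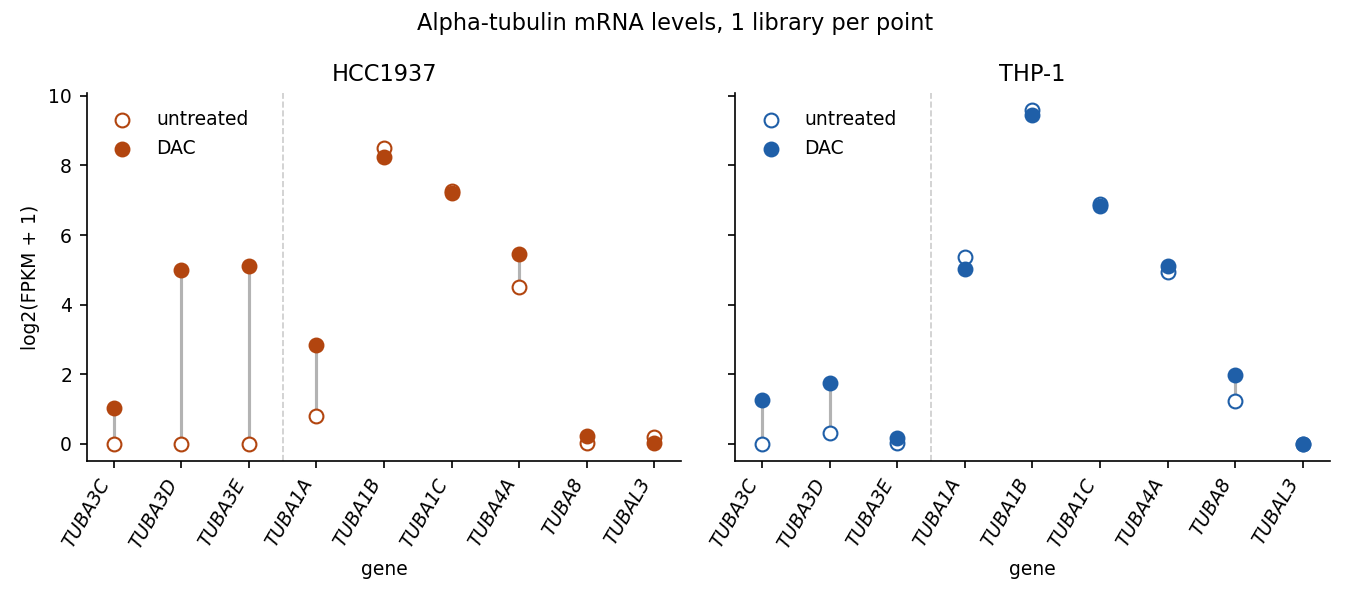
Level of each alpha-tubulin gene, as log2(FPKM + 1), in the untreated (open) and DAC (filled) library of HCC1937 (left) and THP-1 (right), 1 library per point, with a grey line joining the 2 points and a dashed line between the TUBA3 genes and the others. In HCC1937, TUBA3D and TUBA3E go from 0 to 4.99 and 5.12, while TUBA1B and TUBA1C stay at the top of both panels.

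The division of TUBA3 reads among the 3 genes differed between the DAC libraries of the lines. In HCC1937, of about 1920 TUBA3 reads, TUBA3C held 1.56% (interval 1.06 to 2.22%), TUBA3D 47.8% (45.6 to 50.1%) and TUBA3E 50.6% (48.4 to 52.9%). In THP-1, of about 121 reads, TUBA3C held 34.7% (26.3 to 43.9%), TUBA3D 62.0% (52.7 to 70.7%) and TUBA3E 3.31% (0.908 to 8.25%). The intervals of TUBA3C, TUBA3D and TUBA3E did not overlap between the lines. How often this holds for other gene families was not examined, and these genes were picked by their levels, so nothing is read from it. The shares within a library make up a whole, so the 3 comparisons are not independent. The division of reads among the 3 genes is uncertain and the read numbers of THP-1 are approximate, and the intervals cover neither. Whether the lines differ in the use of these genes was not tested. Per length, TUBA3E stood at 1.1 times TUBA3D in HCC1937 with DAC (interval 1.0 to 1.2), whereas in THP-1 TUBA3D stood at 18.5 times TUBA3E (6.78 to 68.1). TUBA3D stood at 29.2 times TUBA3C in HCC1937 with DAC (20.7 to 44.3) and at 1.74 times TUBA3C in THP-1 (1.17 to 2.59). These intervals are Clopper-Pearson intervals of read numbers estimated from FPKM, and spread between cultures was not measured. Untreated THP-1 held about 9 TUBA3 reads, 8 of them on TUBA3D.

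**Figure D3:**
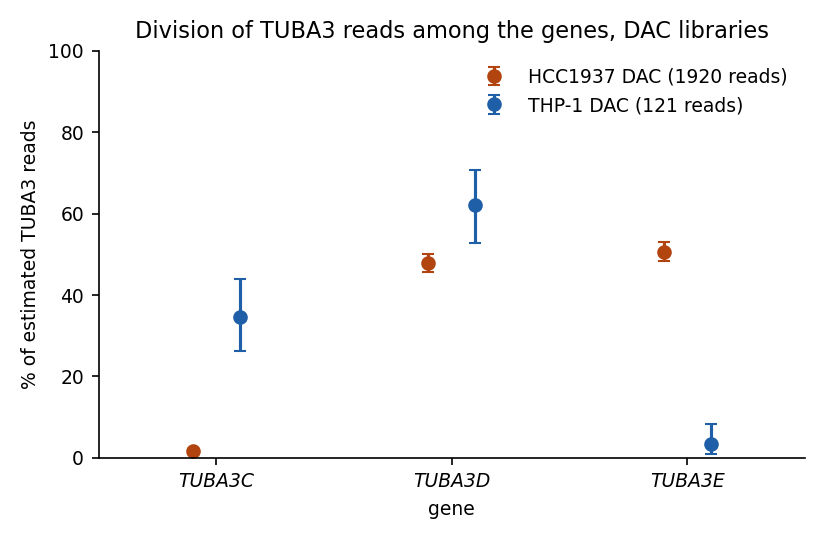
Percent of the estimated TUBA3 reads on each TUBA3 gene in the DAC libraries of HCC1937 (1920 reads) and THP-1 (121 reads), with 95% Clopper-Pearson intervals for counting error. TUBA3D and TUBA3E share the HCC1937 reads nearly evenly at 47.8% and 50.6%, and in THP-1 TUBA3E is at 3.31%.

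TUBA1B and TUBA1C, the alpha-tubulins of most dividing cells, differed by less than 2-fold between the libraries of a line. TUBA1B was at 363.1 FPKM untreated and 301.7 FPKM with DAC in HCC1937, and at 767.56 and 695.74 FPKM in THP-1. TUBA1C was at 154.14 and 146.64 FPKM in HCC1937 and at 116.76 and 114.23 FPKM in THP-1. Their log2 differences lay between -0.27 and -0.03 without scaling. With median-of-ratios and upper-quartile scaling TUBA1B was at -0.55 and -0.58 and TUBA1C at -0.36 and -0.38 in HCC1937. In THP-1 the scaled differences lay between -0.24 and -0.09. TUBA1A, an alpha-tubulin known for its role in developing neurons, was at 0.76 FPKM untreated and 6.12 FPKM with DAC in HCC1937, an 8.05-fold difference with an interval of 5.97 to 11.1. In THP-1 it was at 40.76 and 31.83 FPKM, a log2 difference of -0.35. TUBA4A was at 21.72 and 43.19 FPKM in HCC1937, a log2 difference of 0.96 that lies just below 2-fold, and at 29.38 and 33.46 FPKM in THP-1. By the size rule 1 of the 4 reference genes, TUBA1A, was called higher in HCC1937 and 0 of 4 in THP-1, with medians of 0.44 and -0.09 (0.19 and 0.07 over all kept genes). TUBA1A was kept in HCC1937 through its DAC library alone, so it could only be higher with DAC, though the filter did not set by how much. Nothing is read from this count or median.

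Ordered by level, TUBA3E and TUBA3D took places 4 and 5 among the 9 alpha-tubulins in HCC1937 with DAC, after TUBA1B, TUBA1C and TUBA4A and before TUBA1A. TUBA3C was in place 7. In THP-1 with DAC, TUBA1B, TUBA1C, TUBA4A, TUBA1A and TUBA8 came before TUBA3D, TUBA3C and TUBA3E. TUBA3E and TUBA3D in HCC1937 were 1.1-fold apart, so their order rests on how the reads they share were counted. TUBA8, a divergent alpha-tubulin, was at 0.01 and 0.18 FPKM in HCC1937 and at 1.33 and 2.95 FPKM in THP-1, a ratio of 2.22 (interval 1.74 to 2.88) that gave a log2 difference of 0.76. TUBAL3 was at 0.15 and 0.03 FPKM in HCC1937 and listed at 0 in both THP-1 libraries. TUBA3FP, annotated as a related processed transcript on chromosome 22, was at 0 and 0.93 FPKM in HCC1937, from about 37 reads with DAC, and at 0.18 and 0.36 FPKM in THP-1. At 50 bases, 0.6% of the windows of TUBA3D and of TUBA3E occurred in TUBA3FP and 0.0% of those of TUBA3C. The pseudogene TUBA3GP was listed at 0 in both HCC1937 libraries and had no THP-1 value.

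The other genes of microtubules were described from lists of the beta-tubulins, which complete the dimer, and of 5 further groups. Of 9 beta-tubulins, 7 were kept in HCC1937 and 4 of these were called higher with a median difference of 1.0. Over all kept genes 10.3% were called higher and the median was 0.19. TUBB4A and TUBB2B were kept through their DAC library alone, so the count and the median say nothing of the beta-tubulins as a whole. TUBB4A, known mainly from the nervous system, was at 0.56 and 4.79 FPKM (8.55-fold, interval 6.12 to 12.6). TUBB2A was at 6.94 and 15.64 FPKM, TUBB3, the neuronal beta-tubulin, at 1.87 and 4.75 FPKM, and TUBB2B at 0.33 and 1.66 FPKM. Under each of the 2 scalings 1 of these 4, TUBB4A, was still called, and the other 3, at 1.0 to 1.07 without scaling, were not. The abundant members TUBB and TUBB4B were at 355.32 and 276.35 FPKM and at 545.93 and 493.82 FPKM, and were not called. In THP-1 5 beta-tubulins were kept, none was called, and the largest difference was that of TUBB2A, at 0.53 and 1.48 FPKM. The ratio of TUBB2A was 2.79 (interval 1.58 to 5.03), but its log2 difference with the added 1 was 0.7.

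Of 13 gamma, delta and epsilon tubulins and members of the gamma ring complex, which starts new microtubules, 13 were kept and none was called in either line, with medians of -0.07 and 0.01, except that MZT2B was called lower in HCC1937 under each scaling. Prefoldin, the cytosolic chaperonin and the tubulin cofactors fold new tubulin and join it to dimers. Of these genes 20 were kept in each line and none was called, with medians of 0.13 and 0.02. The largest differences were those of ARL2, at 40.49 and 25.4 FPKM in HCC1937, and of CCT6A, a subunit of the cytosolic chaperonin, at 97.18 and 147.78 FPKM. Of the enzymes that add or remove tubulin modifications 14 were kept in each line and none was called. TTLL1, which adds glutamate chains to tubulin, was at 3.46 and 1.49 FPKM in HCC1937, a log2 difference of -0.84, and was called lower under both scalings. Of the microtubule-associated proteins 17 were kept in HCC1937 and 18 in THP-1 and none was called, with medians of 0.27 and 0.08. Over all kept genes 10.3% were called higher and 1.44% lower in HCC1937, with a median of 0.19. In THP-1 these shares were 1.14% and 0.364%, with a median of 0.07, so a list of this size without a call says little there. Whether the lists differ from other genes was not tested.

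Genes of the sperm flagellum and axoneme were mostly below 1 FPKM: of 40 listed genes 8 were kept in each line. In HCC1937 5 of the 8 were called higher, 4 under each scaling, with a median difference of 1.16. Over all kept genes of this line 10.3% were called higher and the median was 0.19. The axonemal dynein heavy chains DNAH3 and DNAH2 were at 0.02 and 3.54 FPKM and at 0.12 and 1.83 FPKM. CABYR, a calcium-binding protein of the sperm tail, was at 1.69 and 6.12 FPKM, and CATSPER1, a subunit of the sperm calcium channel, at 2.14 and 6.73 FPKM. The filament protein TEKT2 was at 0.19 and 1.42 FPKM. DNAH3, DNAH2 and TEKT2 were kept through their DAC library alone, so the count and the median of the 8 kept genes say nothing of the list as a whole. In THP-1 none of the 8 was called, with a median of 0.08. Over all kept genes of THP-1 1.14% were called higher and 0.364% lower, and the median was 0.07. The largest difference of the list in THP-1 was that of the sperm kinase TSSK6, at 5.31 and 3.35 FPKM. AKAP4, ODF1 and HYDIN, a scaffold of the fibrous sheath, a protein of the outer dense fibres and a protein of the axoneme's central pair, were at or below 0.03 FPKM in all 4 libraries.

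**Figure D4:**
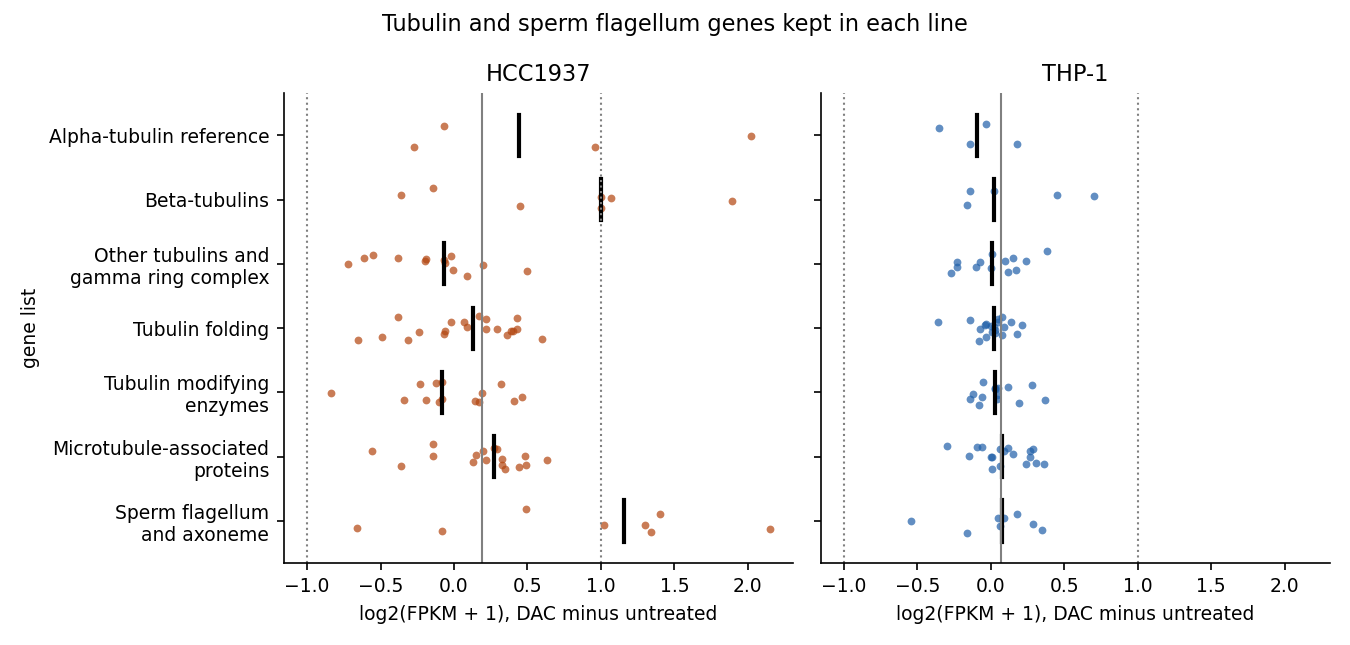
Difference in log2(FPKM + 1), DAC minus untreated, of each kept gene (points) of 7 gene lists in HCC1937 (left) and THP-1 (right), with list medians (black bars), the median of all kept genes (grey line, 0.19 and 0.07) and the 2-fold thresholds (dotted lines at -1 and 1). Points beyond the upper threshold lie in HCC1937 among the alpha-tubulin reference, beta-tubulins and sperm flagellum lists, and none lies beyond a threshold in THP-1.

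In HCC1937 the kept protein-coding genes within 200 kb of TUBA3D and TUBA3E did not share the size of their differences, 4.99 and 5.12. No protein-coding gene with a value lay within 200 kb of TUBA3C. Near TUBA3D and TUBA3E 11 genes had a value in HCC1937 and 7 were kept, with differences from -0.72 to 0.56, and 0 were called. In THP-1 10 had a value and 8 were kept, with differences from -0.27 to 0.73, and 0 were called. TUBA3E, not kept in THP-1, lay within this range at 0.13, and TUBA3D was at 1.44. Over all kept genes 10.3% were called higher and 1.44% lower in HCC1937, and 1.14% and 0.364% in THP-1. At these shares 0 calls among so few neighbours say little of the loci. MZT2A, which encodes a small subunit of the gamma ring complex, lies on the opposite strand across all 6842 bases of TUBA3D without sharing exon bases. It was at 23.54 and 15.11 FPKM in HCC1937 and at 270.32 and 223.88 FPKM in THP-1. Its near copy MZT2B lies 1.0 kb from TUBA3E and was at 127.65 and 76.85 FPKM in HCC1937 and at 385.42 and 328.44 FPKM in THP-1. MZT2B was called lower in HCC1937 with median-of-ratios scaling and with upper-quartile scaling, at -1.01 and -1.03. SMPD4, a sphingomyelinase gene 9.0 kb from TUBA3E, was at 28.16 and 20.37 FPKM in HCC1937. CCDC74A, 44.7 kb from TUBA3D, was at 0.75 and 0.71 FPKM in HCC1937 and at 0.5 and 1.48 FPKM in THP-1. Its THP-1 ratio of 2.96 (interval 1.93 to 4.63) gave a log2 difference of 0.73 with the added 1, below the 2-fold rule. The kept neighbours PLEKHB2, CCDC115, IMP4 and PTPN18 lay further away, with differences between -0.35 and 0.56. Whether reads were counted by strand is not given in the sources used here, so intronic reads of MZT2A and TUBA3D cannot be told apart by strand.

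**Figure D5:**
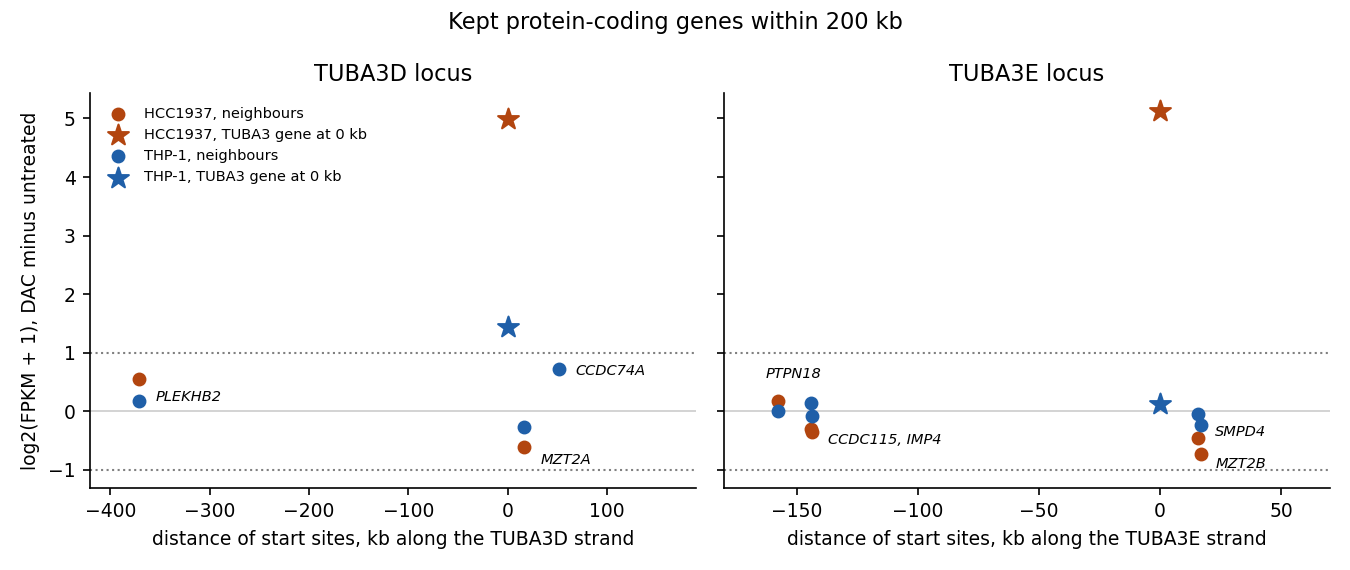
Difference in log2(FPKM + 1), DAC minus untreated, of TUBA3D, TUBA3E (stars) and the kept protein-coding genes within 200 kb (circles) in HCC1937 and THP-1, against the distance between start sites in kb along the strand of the TUBA3 gene. The HCC1937 stars stand at 4.99 and 5.12, and all circles lie between the dotted 2-fold thresholds.

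The genes whose levels over the 4 libraries were most like those of each TUBA3 gene were found by the Euclidean distance on log2(FPKM + 1) among 18221 protein-coding genes. Nearest to TUBA3E were VCX3B at a distance of 0.11, SPDYC at 0.16, HLA-G at 0.35, CLDN6 at 0.42 and CT45A1 at 0.6. VCX3B was at 0.05 and 34.67 FPKM in HCC1937 and at 0 and 0.09 FPKM in THP-1, and SPDYC at 0.11 and 33.03 FPKM and at 0 and 0.12 FPKM. VCX3B and CT45A1 belong to families known for transcription in the testis and in tumours. Nearest to TUBA3D were NNAT at 1.27, CTAG2 at 1.28, MCAM at 1.35, PNMA5 at 1.38 and HLA-G at 1.46. PNMA5 was at 0 and 27.59 FPKM in HCC1937 and at 0.22 and 7.82 FPKM in THP-1, and CTAG2 at 0 and 19.25 FPKM and at 0.05 and 0.61 FPKM. Nearest to TUBA3C were CD248 at 0.2, RLN3 at 0.45, TNFRSF4 at 0.46, SMIM24 at 0.52 and CD79A at 0.54, with levels between 0 and 1.56 FPKM in the 4 libraries. TUBA3E was number 7 among the genes nearest to TUBA3D, at 1.62, and TUBA3D number 20 among those nearest to TUBA3E. TUBA3C was 4.0 from TUBA3D and 4.22 from TUBA3E. With 4 libraries such likeness is a description and carries no p.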

How the data were processed

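RNA was sequenced in 4 libraries, 1 per group. Per the labels' protocols, libraries were prepared from mRNA with a TruSeq kit. The submitters' processing notes name FastQC, HTSeq, STAR, cutadapt and the build hg38. Versions, annotation and counting settings are not given in the sources used here. The deposited table gives no unit, and its 2-decimal values were read as FPKM made by the authors: among genes of 50 to 250 exon bases (GENCODE 29), 92.1 to 94.2% lie within 0.1 of a whole read once multiplied by length. That spacing gave the depth. In 37039 of 60612 lines the THP-1 columns hold no number (they read #N/A), and they imply other gene lengths, so reads estimated there are approximate.

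Left out were 76 repeated symbols (1079 lines). The filter was 1 FPKM in at least 1 library of the line, the pseudocount 1 and the size of change 2-fold, with no test and no p-value. Reads were estimated as FPKM times exon length and depth, and gave Clopper-Pearson intervals of 95%. The TUBA3 genes, lists, naming rule and alternatives were chosen with earlier results of these data known. Named were all alpha-tubulins, the kept members of each list that differed most in a line (up to 4), kept protein-coding neighbours within 200 kb and the 5 nearest genes by pattern; TEKT2, AKAP4, ODF1, HYDIN, TUBB and TUBB4B were named after their values were seen. The planned protein identity was replaced by that of coding sequences. TBCE and TTLL13 gave no value. A check of the introduced gene is not reported here. Only the size rule and its scalings were tested on simulated data. Scripts used Biopython 1.88, scipy 1.17.1, matplotlib 3.10.9, pandas 2.3.3 and numpy 2.4.6 in Python 3.11.15.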

Additional observations from a re-analysis of the deposited data

Results flagged for a closer look

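TUBA1A differed in opposite directions in the lines: its log2 difference, DAC minus untreated, was 2.02 in HCC1937 (0.76 and 6.12 FPKM) and -0.35 in THP-1 (40.76 and 31.83 FPKM). Each value rests on 1 library per group, and the difference between the lines was not tested. Untreated, the gene was far lower in HCC1937 than in THP-1.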

How the results depend on the processing

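No paired analysis was possible because each group has 1 library, and leaving out a replicate was not possible either. Of 153 values recomputed under alternatives, 88 moved by less than their counting interval or 1.5 times, 65 moved further and 0 reversed. No TUBA3 difference changed direction, but this is no evidence of stability. No pseudocount can turn a sign, and no scaling can where the untreated value is 0. Leaving out the filter changed no count, since a gene below 1 FPKM in both libraries cannot differ 2-fold on this scale.

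The sizes of the TUBA3 differences depend on the pseudocount. With 0.1 in place of 1 the log2 differences of TUBA3C, TUBA3D and TUBA3E were 3.52, 8.27 and 8.4 in HCC1937 and 3.89, 2.84 and 0.82 in THP-1, and those of the summed level were 9.36 and 3.4. With 10 they were 0.14, 2.03 and 2.13 in HCC1937, 0.19 and 0.27 for TUBA3C and TUBA3D in THP-1, and 2.92 and 0.44 for the sum. Taken over estimated reads and not per length, an alternative added after seeing the data, the TUBA3 share of alpha-tubulin with DAC was 4.99% in HCC1937 and 0.189% in THP-1, and 0.013% in untreated THP-1.

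Of the reference alpha-tubulins in HCC1937, 0 were higher with a pseudocount of 10 and 2 at 1.5-fold, in place of 1. Of the members of the 6 other lists in HCC1937, 9 higher became 5 under each scaling, 0 with a pseudocount of 10, 3 at 5 FPKM or more and 1 at 4-fold. The 0 lower became 2 under each scaling, 1 with a pseudocount of 0.1 and 5 at 1.5-fold. In THP-1 the 0 higher became 1 with a pseudocount of 0.1 and 1 at 1.5-fold.

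Over all kept genes in HCC1937, 202 lower became 451 under median-of-ratios and 480 under upper-quartile scaling. Higher and lower calls were 2323 and 383 with a pseudocount of 0.1, 131 and 31 with 10, 550 and 108 at 5 FPKM or more, 3084 and 831 at 1.5-fold and 294 and 13 at 4-fold. In THP-1, where 138 were higher and 44 lower, they were 297 and 74, 3 and 0, 42 and 4, 398 and 121, and 13 and 3 under the same alternatives. Counting protein-coding genes alone, an alternative chosen after seeing the data, gave 904 and 87 in HCC1937 and 35 and 0 in THP-1. Of the neighbouring genes 1 was past 2-fold in HCC1937 under each scaling, also added later.

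Of the 5 genes nearest in pattern, 3, 2 and 3 were shared for TUBA3C, TUBA3D and TUBA3E with a pseudocount of 0.1, and 1, 2 and 3 when differences within each line replaced levels.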
